A study of Mus musculus with 24 samples.

Results

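The neutrophil granule and alarmin genes are 10 protein-coding genes, taken by their symbols from the 48709 genes of the count table: S100a8, S100a9, Ltf, Camp, Ngp, Elane, Mpo, Lcn2, Mmp8 and Mmp9. Each symbol matched a single gene. The RNA came from whole blood and cerebral cortex of mouse neonates whose dams breathed either filtered air (control) or nano-sized particulate matter (nPM), airborne particles collected beside a Los Angeles freeway, for 5 hours per day on 3 days per week from gestational day 2 until birth. The labels give the strain as C57BL/6J, the age as 3 to 5 days and the dose as 300 mg/m3. The study's methods give C57BL/6NJ, day 5 and the same dose figure in micrograms per m3. The study describes both tissues as taken from the same animals. Each tissue had 12 libraries, with 3 for each sex and exposure. The methods state that the 3 pups of such a group came from different litters, but no label ties a pup to a litter. P-values therefore measure the spread between these pups only.

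Neutrophils are the short-lived granulocytes that reach infected tissue first. They pack their proteins into granules in the order in which they mature, so that azurophil granules of promyelocytes hold myeloperoxidase (Mpo) and neutrophil elastase (Elane), specific granules of later precursors hold lactoferrin (Ltf), cathelicidin (Camp), neutrophilic granule protein (Ngp), lipocalin-2 (Lcn2) and collagenase-2 (Mmp8), and gelatinase granules hold gelatinase B (Mmp9). S100a8 and S100a9 pair to form calprotectin, an abundant calcium-binding protein of the neutrophil cytosol that acts as an alarmin, a danger signal read by receptors such as TLR4, once it leaves the cell. Most granule transcripts are made in precursor cells and fade as neutrophils mature, whereas S100a8 and S100a9 transcripts persist in circulating cells.

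In the coordinates of the files (mm10), S100a8 (chr3:90668978-90670035, plus strand) and S100a9 (chr3:90692632-90695721, minus strand) were neighbours, 22597 bases apart. Camp (chr9:109847379-109849617, minus), Ngp (chr9:110419747-110423012, plus) and Ltf (chr9:111019271-111042767, plus) lay within 1169654 bases of each other, and Mmp8 was elsewhere on the chromosome (chr9:7558429-7568486, plus). Lcn2 (chr2:32384633-32388252, minus), Mmp9 (chr2:164940780-164955850, plus), Elane (chr10:79886312-79888216, plus) and Mpo (chr11:87793581-87804413, plus) completed the set. Only Mpo overlapped another gene, the antisense Gm11505, which drew 29 counts over all libraries.

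The stretches upstream of S100a8 and S100a9 and of Ltf and Ngp are shown because these were on average the 4 most counted members in blood, and because C/EBP factors and PU.1 are textbook regulators of neutrophil genes. RefSeq promoters (GRCm38.p6, 250 bases before and 50 after the start site) were found for 9 of the 10 members, the exception being Mmp9. Capitals mark matches, on either strand, to TTNCNNAA, the consensus of C/EBP factors, or to GAGGAAGT, a PU.1 core. The stretches run 5′ to 3′ on the gene's strand and stop where the annotated gene begins.
S100a8, chr3:90668821-90668977, plus strand: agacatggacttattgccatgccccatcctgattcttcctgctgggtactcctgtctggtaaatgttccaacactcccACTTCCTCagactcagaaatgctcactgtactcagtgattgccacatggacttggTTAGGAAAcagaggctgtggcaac
S100a9, chr3:90695722-90695971, minus strand: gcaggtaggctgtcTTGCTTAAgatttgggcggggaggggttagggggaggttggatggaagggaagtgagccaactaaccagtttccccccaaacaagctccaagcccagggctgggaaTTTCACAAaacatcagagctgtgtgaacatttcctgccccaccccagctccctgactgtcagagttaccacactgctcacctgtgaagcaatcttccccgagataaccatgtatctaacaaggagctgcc
Ltf, chr9:111019042-111019270, plus strand: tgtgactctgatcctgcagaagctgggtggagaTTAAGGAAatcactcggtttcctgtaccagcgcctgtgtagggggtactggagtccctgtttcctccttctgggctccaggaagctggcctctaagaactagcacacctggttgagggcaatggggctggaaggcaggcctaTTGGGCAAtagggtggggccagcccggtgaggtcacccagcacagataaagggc
Ngp, chr9:110419558-110419746, plus strand: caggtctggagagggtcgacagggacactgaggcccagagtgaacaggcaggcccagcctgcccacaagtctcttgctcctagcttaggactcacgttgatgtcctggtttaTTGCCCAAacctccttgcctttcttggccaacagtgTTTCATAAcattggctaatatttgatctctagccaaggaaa
Among all 32851 promoters of this length, 40.7% held the C/EBP letters and 3.20% the PU.1 letters. Of the members' 9 promoters, 6 held the first (Lcn2, Ltf, Mmp8, Ngp, S100a8 and S100a9) and 4 the second (Elane, Mmp8, Mpo and S100a8). These matches describe letters in a window and no binding was measured.

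The 11 blood libraries used had 13595647 to 21895536 counts on genes, of which globin genes took 66.2 to 76.8%, and the 12 cortex libraries had 22301409 to 33804371. Blood control replicate 3, a female, stood apart and was left out of the blood comparisons, as the study left out 1 blood library. It had counts on 22461 genes, against 13254 to 17273 in the others. Summed over 5 genes each, its skin markers reached 8248 CPM, counts scaled to a common library total, and its fibroblast markers 4355 CPM, against at most 7.82 and 38.9 CPM in the other blood libraries. Neuron markers were at 6145 to 7771 CPM in cortex. In blood the neuron markers were at 33.4 CPM in nPM replicate 5, at 6.58 to 9.09 CPM in the 4 libraries of lane 3, a lane shared with cortex, and at most 1.97 CPM in the others.

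Per length, the alarmins led the set in blood. Mean CPM per kilobase of exon (RPKM) was 79.4 ± 20.2 (SD, n = 11) for S100a9 and 43.4 ± 12.03 for S100a8. The specific granule genes came next, with 9.85 ± 2.96 RPKM for Ngp, 6.93 ± 2.10 for Camp and 3.79 ± 1.06 for Ltf. Lcn2 (1.58 ± 0.41 RPKM), Mmp9 (1.48 ± 0.32) and Mmp8 (1.22 ± 0.31) were close to each other. The azurophil genes were lowest, with Mpo at 0.43 ± 0.15 RPKM and Elane at 0.39 ± 0.31. S100a9 was above S100a8 in 11 of 11 libraries and Camp above Ltf in 11 of 11, whereas Lcn2 was above Mmp9 in 8, Mmp9 above Mmp8 in 9 and Mpo above Elane in 7, so those neighbours did not differ beyond their spread. Only S100a8 and Ngp, among neighbours in this order, had ranges that did not overlap. S100a8 and S100a9 together took 54.3 to 66.3% of the members' counts in a library.

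The first comparison asks whether the level of these genes in blood differed between nPM and control pups. No member passed a test of it. Of the 9 members tested, 0 passed an adjusted p of 0.05 in edgeR's quasi-likelihood test, where 0% of all 9977 genes did, and 0 passed an unadjusted p of 0.005, where 0.17% did. None had an unadjusted p under 0.05, where 3.11% of genes did, and limma voom and DESeq2 also gave 0 members at an adjusted p of 0.05. The median log2 fold change of the tested members was 0.06, beside 0.002 over all genes. In bulk blood, fewer neutrophils and less RNA per neutrophil cannot be told apart.

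For the alarmins, values are given as CPM scaled by TMM, edgeR's correction for library composition. S100a8 was at 38.4, 22.3, 35.0, 42.2 and 18.5 CPM in control replicates 1, 2, 4, 5 and 6, and at 19.8 (lowest), 29.3 (median) and 38.5 CPM (highest) in the 6 nPM libraries. The nPM range lay inside the control range. The means were 29.1 ± 6.12 CPM (SD, n = 6) with nPM and 31.3 ± 10.4 CPM (n = 5) in controls, with a two-sided exact permutation p of 0.652, and the log2 fold change was -0.07 (95% interval -0.54 to 0.39). S100a9 was at 60.1, 40.0, 45.1, 51.3 and 27.5 CPM in the same controls and at 25.1, 39.2 and 46.5 CPM (lowest, median, highest) with nPM. Its groups overlapped over most of their range. The log2 fold change of S100a9 was -0.21 (95% interval -0.67 to 0.24, exact permutation p = 0.307).

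The groups of the specific granule genes overlapped too. Ltf, the iron-binding lactoferrin, was at 14.5, 14.01, 14.2, 13.1 and 6.99 CPM in the controls and at 7.78, 13.6 and 17.6 CPM (lowest, median, highest) with nPM, a log2 fold change of 0.09 (95% interval -0.38 to 0.57). Control replicate 6 was the only control under 13 CPM. Camp, the antimicrobial cathelicidin, was at 5.75, 5.19, 6.02, 6.86 and 3.54 CPM in controls and at 2.27, 5.21 and 7.23 CPM with nPM, with a log2 fold change of -0.10 (95% interval -0.60 to 0.39). Ngp, a cystatin-like granule protein, was at 13.4, 13.02, 12.8, 13.7 and 5.11 CPM in controls and at 7.44, 12.3 and 15.8 CPM with nPM, with a log2 fold change of 0.08 (95% interval -0.42 to 0.58). For Camp and Ngp the lowest library of each exposure lay well below the rest. Lcn2, which binds bacterial siderophores, had a log2 fold change of 0.13 (95% interval -0.37 to 0.63) and means of 4.28 ± 1.12 CPM with nPM and 4.06 ± 1.54 CPM in controls.

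Among the proteases, Mmp8 had the highest fold change of the set, 0.21 on the log2 scale (95% interval -0.28 to 0.69), with means of 3.15 ± 0.59 CPM with nPM and 2.74 ± 0.82 CPM in controls. Mmp9, which cleaves gelatin and type IV collagen, had means of 5.30 ± 1.52 and 5.18 ± 0.58 CPM and a log2 fold change of 0.06 (95% interval -0.40 to 0.52). For Mmp9, nPM replicate 4 lay below every other blood library, at 2.46 CPM. Of the azurophil genes, Mpo was at 2.79, 1.48, 1.58, 2.12 and 0.47 CPM in controls and at 1.06, 1.36 and 1.65 CPM with nPM, with a log2 fold change of -0.37 (95% interval -1.01 to 0.27). The controls spread on both sides of all nPM values. Elane, the elastase, was counted 4, 15, 8, 1 and 0 times in the controls and 4 to 17 times with nPM, and it failed the filter of at least 1 count in every library. The count of 0 allows up to 0.221 CPM in that library, counting error only. Its means were 0.41 ± 0.22 CPM with nPM and 0.25 ± 0.26 CPM in controls (exact permutation p = 0.314). Over all 10 members the exact p lay between 0.307 and 0.905, where the design allows 0.0022.

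**Figure D1:**
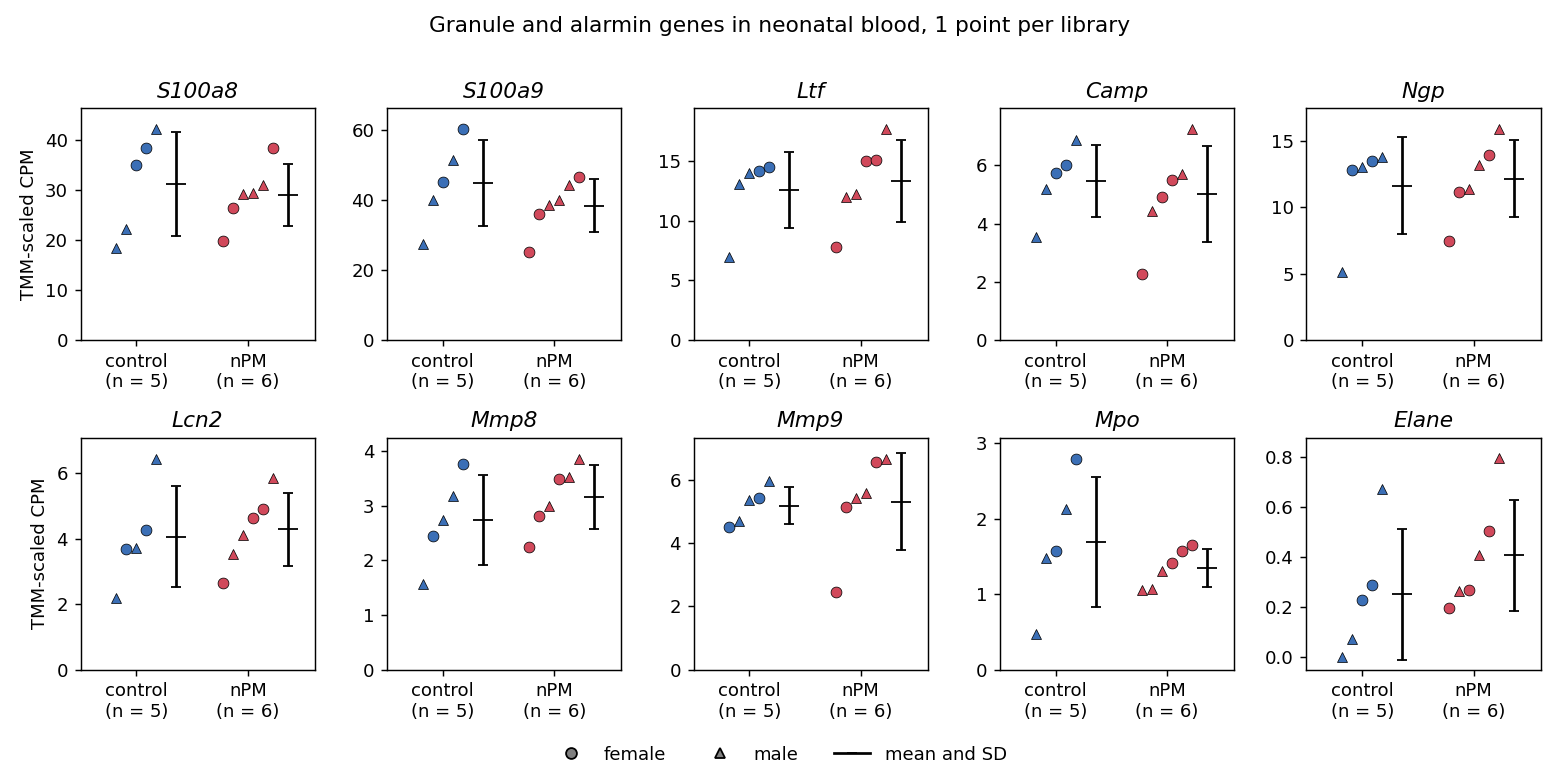
Level of each member in neonatal blood as TMM-scaled CPM (vertical axis, a separate scale for each gene), with 1 point per library, circles for females, triangles for males, and the mean with SD beside each group. The groups overlap for all 10 genes, as for S100a8 with 18.5 to 42.2 CPM in 5 controls and 19.8 to 38.5 CPM in 6 nPM libraries.

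Sequencing lane is recorded in the labels, and both lanes of blood held both exposures. Within lane 1 (4 nPM and 3 control libraries) the log2 ratio of the group means was -0.13 for S100a8, -0.14 for S100a9 and 0.21 for Ltf. Within lane 3 (2 and 2 libraries) the same ratios were -0.08, -0.32 and -0.07. Camp was also below 0 in both lanes, at -0.08 and -0.23, whereas Ngp (0.20 and -0.12) and Mmp8 (0.45 and -0.17) differed in sign.

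The second comparison asks whether the nPM effect in blood differed between the sexes. In females, all 9 tested members had a log2 fold change below 0, from -0.68 to -0.10 with a median of -0.41, beside -0.04 over all genes. That median was 0.34 with the left-out control female added and -0.072 without control replicate 1, 1 of the 2 control females. When added, the left-out library had a TMM factor of 6.95, against 0.65 to 1.07 in the other blood libraries. Its levels, already low, are divided by that factor. In males, 8 of 9 lay above 0, with a median of 0.36 beside 0.02. The difference, male minus female, was above 0 for 9 of 9 members, from 0.21 to 0.99 with a median of 0.75, beside 0.09 over all genes. In edgeR's interaction test 0 members passed an adjusted p of 0.05, where 0% of genes did, and 0 passed an unadjusted p of 0.005, where 0.902% did. S100a8 and Camp, 2 of 9, had an unadjusted p under 0.05, where 10.7% of genes did. The same 9 values come from the same 11 libraries and are not 9 independent readings. The females had 2 control libraries.

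S100a8, a calprotectin subunit, was at 38.4 and 35.0 CPM in control females and at 26.4, 38.5 and 19.8 CPM in nPM females, so that the ranges overlapped. In males it was at 22.3, 42.2 and 18.5 CPM in controls and at 31.1, 29.2 and 29.4 CPM with nPM, inside the control range. Its interaction was 0.95 (SE 0.42, 95% interval 0.07 to 1.83, edgeR unadjusted p = 0.035, adjusted p = 0.454). S100a9 was at 60.1 and 45.1 CPM in control females, at 36.1, 46.5 and 25.1 CPM in nPM females, at 40.0, 51.3 and 27.5 CPM in control males and at 44.1, 38.4 and 39.9 CPM in nPM males. Of the 3 nPM females, 2 lay under both control females and 1 between them. The interaction of S100a9 was 0.88 (SE 0.43, edgeR unadjusted p = 0.053, adjusted p = 0.470).

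Camp had the largest interaction of the set, 0.99 (SE 0.45, edgeR unadjusted p = 0.038, adjusted p = 0.454). Its mean was 5.88 CPM in 2 control females, 4.23 CPM in 3 nPM females, 5.20 CPM in 3 control males and 5.80 CPM in 3 nPM males. Ngp had 0.93 (SE 0.46, edgeR adjusted p = 0.477), and Mpo was lowest with 0.21 (SE 0.66, edgeR adjusted p = 0.916). The 4 other azurophil granule genes tested lay below 0, with a median of -0.25. With the left-out control female added, the members' median interaction was -0.02, and without the RIN covariate it was 0.49. Without nPM replicate 1, a female, the interaction of Camp was 1.53 (edgeR unadjusted p = 0.0033, adjusted p = 0.177). Of the runs with 1 library left out, only that one took a member past an unadjusted p of 0.005 in the interaction. The share of all genes past it in that run is not given here. In females 0 members passed an unadjusted p of 0.005, where 1.12% of genes did. S100a9 alone had an unadjusted p under 0.05 there (1 of 9 members, where 9.33% of genes did), with a log2 fold change of -0.68 (SE 0.30, edgeR adjusted p = 0.513). In males 0 members passed either threshold, where 0.351% of genes passed 0.005 and 4.99% passed 0.05.

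Markers of other blood cells were read in the same contrast, where 0 passed an adjusted p of 0.05 and 10.7% of all genes had an unadjusted p under 0.05. All 5 platelet markers had interactions below 0 with unadjusted p under 0.05, from -1.80 (Ppbp, a platelet chemokine, edgeR adjusted p = 0.452) to -0.98. Their sum was 143 to 159 CPM in control females, 169 to 400 CPM in nPM females, 161 to 259 CPM in control males and 189 to 267 CPM in nPM males. All 5 T and NK cell markers and all 5 B cell markers lay above 0, with medians of 1.08 and 0.77, and 2 and 0 of them had an unadjusted p under 0.05. The T and NK sum was 6.93 and 20.5 CPM in control females and 2.95 to 8.90 CPM in nPM females. The B cell sum was 22.5 and 35.6 CPM in control females and 7.88 to 29.8 CPM in nPM females. All 6 neutrophil surface markers also lay above 0, with a median of 0.88, as did the 4 of 5 fibroblast markers tested, with a median of 0.85. Of the 5 monocyte markers 4 lay below 0, with a median of -0.57, and F13a1 among them had a log2 fold change of 1.16 in females (SE 0.33, edgeR adjusted p = 0.439). The 6 globin genes tested lay below 0, with a median of -0.66. The part of these cell types in the members' values was not tested.

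**Figure D2:**
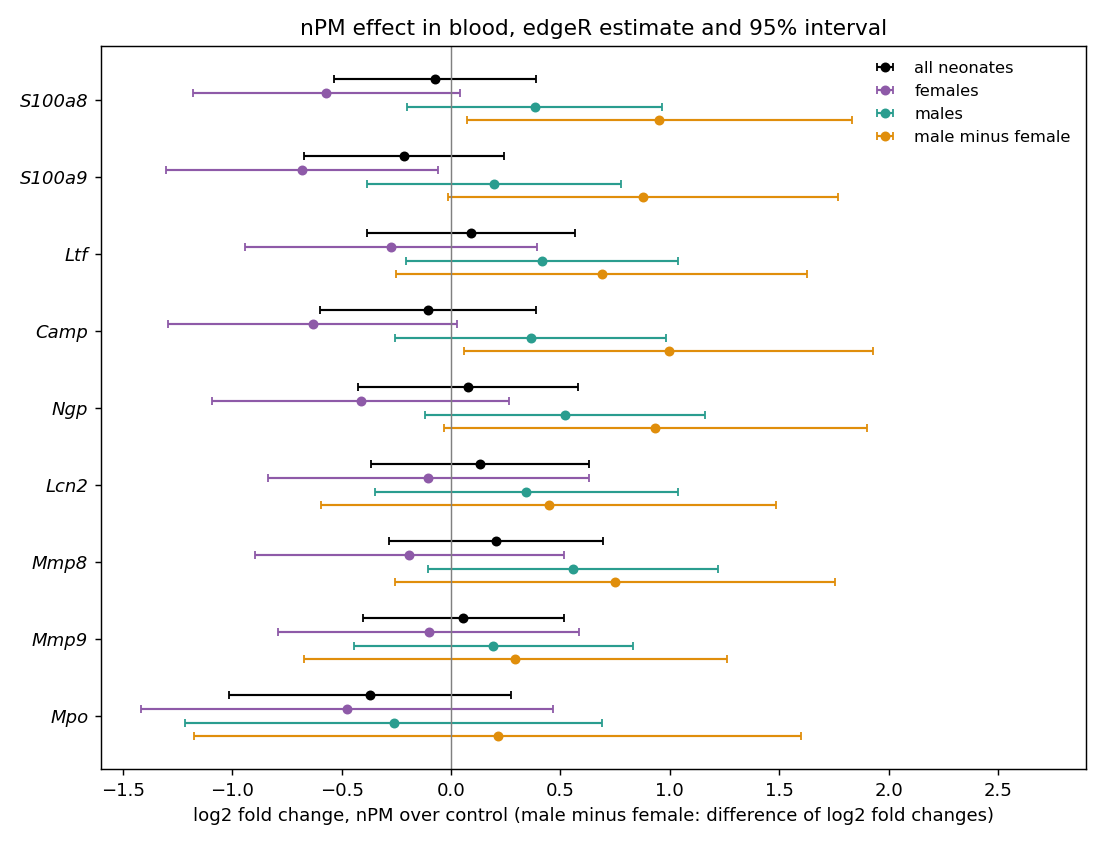
edgeR log2 fold changes with 95% intervals (horizontal axis) for the 9 tested members, over all neonates, in females, in males, and as the male minus female difference. Over all neonates every interval crosses 0, and the difference runs from 0.21 for Mpo to 0.99 for Camp, with intervals of S100a8 and Camp above 0 before adjustment.

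Sex itself and RNA quality were read from the same fits. For males against females the members' median log2 difference was -0.19, beside 0.03 over all genes, and 0 members passed an unadjusted p of 0.005 or 0.05, where 0.351% and 4.54% of genes did. Per unit of RIN, the RNA integrity number, 8 of 9 members lay above 0, with a median log2 slope of 0.20 beside -0.02. Lcn2 had the steepest slope, 0.43 (SE 0.26, edgeR adjusted p = 0.941), and 0 members passed an unadjusted p of 0.005 or 0.05, where 0.271% and 4.63% of genes did. RIN ran from 7.5 to 9.3 over the blood libraries. Of the markers, Tubb3, a neuronal tubulin, had a slope on RIN of -2.95 (edgeR adjusted p = 0.941) and a sex difference of 2.95 (edgeR adjusted p = 0.998), and the mast cell gene Cpa3 a sex difference of -1.79 (edgeR adjusted p = 0.998).

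No gene of the related lists passed an adjusted p of 0.05 in the nPM comparison of blood. Of 8 other azurophil genes 4 could be tested, all above 0 in the nPM comparison with a median of 0.16, and 0 had an unadjusted p under 0.05. Lyz2, the macrophage and neutrophil lysozyme, was the most abundant at 50.4 RPKM, with a log2 fold change of 0.17 (95% interval -0.25 to 0.58) and near copies that may share its reads. Of 16 other specific and gelatinase granule genes 13 were tested, 8 above and 5 below 0. Olfm4, olfactomedin-4 of a subset of neutrophils, was the single gene under 0.05, where 3.11% of all genes were (log2 fold change 0.63, SE 0.30, edgeR unadjusted p = 0.048, adjusted p = 0.9996). The 2 with the highest level were Anxa1 (2.48 RPKM), a regulator of neutrophil adhesion, and Hp, haptoglobin (2.35 RPKM). Of 20 neutrophil surface and mature genes 16 were tested, 8 above and 8 below 0, with a median of 0.005. They were led by Cd24a at 1232 RPKM, a gene that red cell precursors also express, and BC100530.

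Of the transcription factors of granulopoiesis, 6 of 10 were tested and 0 had an unadjusted p under 0.05. Cebpe, needed for specific granules, had 2 to 16 counts and a log2 fold change of 0.97 (SE 0.55, edgeR adjusted p = 0.9996), 1 of the 6 above 0. The most abundant were Spi1, which encodes PU.1 (0.75 RPKM, log2 fold change -0.14), and the progenitor factor Myb (0.44 RPKM, -0.49). Of the NADPH oxidase subunits, which make the oxidative burst, 6 of 6 were tested, 4 above and 2 below 0, with a median of 0.10. Cyba, its membrane subunit, had 5.02 RPKM and a log2 fold change of 0.23 (95% interval -0.19 to 0.65), and the GTPase Rac2 3.58 RPKM and -0.15. The alarmin receptors and their signalling genes were thinly counted, with Tlr4 at 4 to 21 and Cd14 at 0 to 6 counts per library, and 4 of 8 were tested with a median of -0.07. The scavenger receptor Cd36 (64.8 RPKM) had a log2 fold change of 0.005 and the cytokine Il1b (0.70 RPKM) of 0.43. Among 13 inhibitors of granule proteases 4 were tested, with a median of 0.45, led by Slpi, the secretory leukocyte protease inhibitor (1.56 RPKM, log2 fold change 0.33). Serpinb1a, an inhibitor of elastase, had a slope on RIN of 1.32 (SE 0.34, edgeR unadjusted p = 0.00086, adjusted p = 0.941). Among the other S100 genes 6 of 13 were tested, and S100a10, the annexin A2 partner, had an interaction of -1.30 (SE 0.38, edgeR unadjusted p = 0.0029, adjusted p = 0.452), the opposite sign to S100a8 and S100a9. S100a1 (6.43 RPKM) had a log2 fold change of -0.14 with nPM. For the 3 of 6 other gelatinases and collagenases tested in blood the median was 0.42, with at most 12 counts for any of them.

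Many members had their lowest levels in the same libraries. The lowest or next to lowest value of 9 of the 10 members fell in control replicate 6, a male, and that of 7 in nPM replicate 4, a female. The share of all genes with their lowest values there was not computed, so these counts do not single out the members. Control replicate 6 had the lowest depth of the blood libraries. The nPM replicate 4 library had the highest sum of platelet markers, 400 CPM, and the lowest of B cell markers, 7.88 CPM, and its globin share of 66.2% was the lowest of the 11. These features were not tested as causes of the low member levels.

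Over the 11 blood libraries, 9 relations with S100a8 were computed on log2(TMM-scaled CPM + 0.5), with Benjamini-Hochberg adjustment over the 9. S100a9 followed S100a8 most closely, with Pearson's r of 0.91 (permutation p = 9e-05, adjusted p = 0.00081) and Spearman's rho of 0.91 (p = 0.0003). It kept r = 0.79 without the 2 libraries farthest from the S100a8 median and r = 0.98 within the 7 libraries of lane 1 (exact permutation p = 0.00099). The ratio of S100a9 to S100a8 per length stayed between 1.603 and 2.38. Ngp (r = 0.77, permutation p = 0.0029, adjusted p = 0.013), Lcn2 (r = 0.76, permutation p = 0.0065, adjusted p = 0.015), Camp (r = 0.74, permutation p = 0.0058, adjusted p = 0.015), Ltf (r = 0.67) and Mmp8 (r = 0.64) also passed an adjusted p of 0.05 by Pearson's r. Within lane 1 alone S100a9 was the only member that did, and lane 3 held 4 libraries, too few for a correlation. The share of all genes with such an r to S100a8 was not computed, so these passes have no background beside them.

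These other relations were weaker without control replicate 6 and nPM replicate 4, the libraries farthest from the S100a8 median. Leaving out such extremes narrows the range of S100a8, which can by itself lower r. The part of this in the lower values was not tested. Without that pair r fell to 0.32 for Ngp, 0.42 for Lcn2 and Mmp8, 0.40 for Camp and -0.08 for Ltf. Spearman's rho was 0.77 for Ngp, 0.66 for Lcn2, 0.68 for Camp and 0.43 for Ltf, and only S100a9 and Ngp passed an adjusted p of 0.05 by rank. Mpo (r = 0.61, permutation p = 0.042, adjusted p = 0.054), Mmp9 (r = 0.42) and Elane (r = 0.11) did not pass. The sum of the azurophil genes was 1.27 to 6.12% of the sum of Ltf, Camp and Ngp per length, while the alarmin ratio kept within the limits given.

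**Figure D3:**
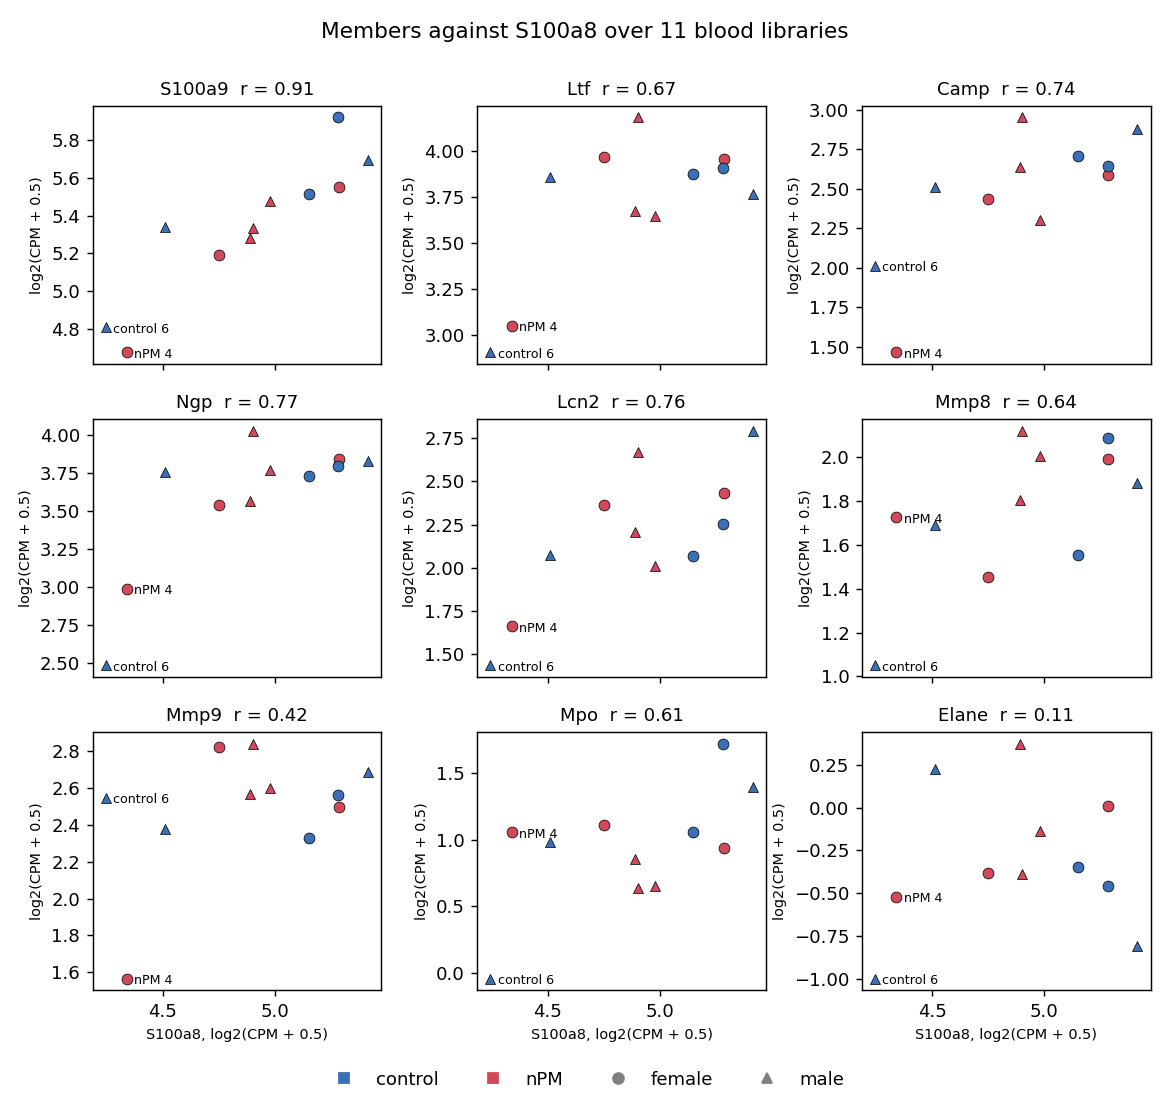
Each member's level against that of S100a8 over 11 blood libraries, both as log2(TMM-scaled CPM + 0.5), with controls in blue, nPM in red, circles for females and triangles for males. S100a9 runs along S100a8 over the whole range, while for Ltf and Ngp the 2 libraries named in the panels lie below the other 9.

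The genes outside the set whose pattern was most like the mean of the 9 tested members, by Pearson's r over the 11 libraries, were led by BC100530 (r = 0.92), Hnrnpul2 (r = 0.92), Stfa2 (r = 0.91), Gm5483 (r = 0.91), Stfa1 (r = 0.88) and Stfa2l1 (r = 0.86). BC100530, Gm5483 and the Stfa genes belong to the stefin A family of cysteine protease inhibitors, near-identical copies among which reads may be split, and they were counted 30 to 468 times per library. Arfgap2, Slc20a2, Serpinh1 and Tprkb completed the 10 with r of 0.84 to 0.86, 2 of them on at most 19 counts. The likeness is a description over 11 libraries that share depth and composition. Among the lists, the 4 other azurophil genes tested had r of -0.44 to -0.20, the 13 other specific and gelatinase granule genes -0.62 to 0.82, and the 16 neutrophil surface and mature genes, which include stefin genes, -0.55 to 0.92. The 5 B cell markers had r of 0.34 to 0.76, the 4 fibroblast markers tested 0.55 to 0.70 and the 5 platelet markers -0.54 to -0.30.

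In cortex the set was close to the limit of counting, apart from Mmp9. Mmp9 was counted 37 to 74 times per library and reached 0.52 ± 0.10 RPKM (SD, n = 12), which was 35.4% of its blood level. Both levels are relative to all counts of a library. Globin genes took 66.2 to 76.8% of these in blood and 0.024 to 0.068% in cortex. Against non-globin counts each cortex level would be lower relative to blood, here and wherever the tissues are set side by side. S100a8 was counted 3 to 26 times (0.48 ± 0.38 RPKM) and S100a9 1 to 23 times (0.51 ± 0.48 RPKM). Ltf had 2 to 8 counts, while Camp was at 0 counts in 3 of 12 libraries, Lcn2 in 1, Mpo in 4, Ngp in 6, Mmp8 in 8 and Elane in 11. A count of 0 allowed 0.089 to 0.135 CPM per library.

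Relative to blood, 8 members stood at 0.64 to 1.98% in cortex and Mpo at 5.29%. The globin genes, which mark red cells, stood at 0.058%, a lower share than any member's. By lane, the globin share was 0.042% in lane 2 and 0.090% in lane 3, which also held blood libraries. That of S100a8 was 1.15% and 0.99%. The source of the globin reads in cortex was not tested. The 9 members other than Mmp9 summed to 0.27 to 3.46 CPM in lane 2, with globin at 244 to 445 CPM, and to 0.52 to 1.39 CPM in lane 3, with globin at 614 to 678 CPM. Cortex control replicate 1 had the highest sum of the 9 members other than Mmp9, 3.46 CPM against 0.27 to 1.91 CPM in the others, with globin at 289 CPM in a range of 244 to 678 CPM. Its fibroblast markers summed to 314 CPM against 116 to 211 CPM in the other cortex libraries. The library next highest for the members, nPM replicate 3 with 1.91 CPM, had 187 CPM of fibroblast markers. The part of these markers in the members' values was not tested.

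**Figure D4:**
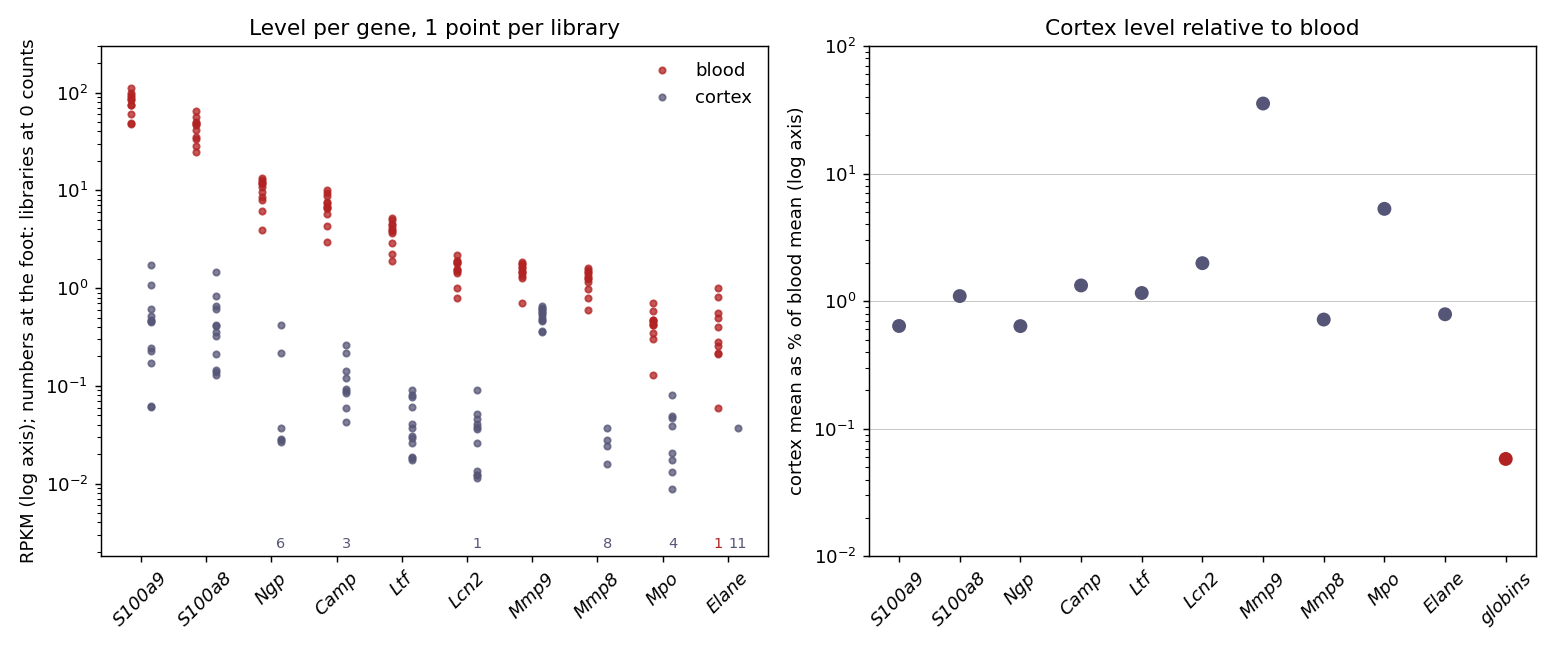
Left, RPKM of each member on a log axis in 11 blood and 12 cortex libraries, with the number of libraries at 0 counts at the foot. Right, mean cortex level as a percent of the mean blood level on a log axis, from 35.4% for Mmp9 down to 0.058% for the summed globin genes.

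The third comparison asks whether these genes differed with nPM in cortex. Of 4 members tested, 0 passed an adjusted p of 0.05, where 0.0144% of 20857 genes did, 0 passed an unadjusted p of 0.005, where 0.614% did, and 0 had an unadjusted p under 0.05, where 5.67% did. limma voom and DESeq2 gave 0 members at an adjusted p of 0.05 as well. Mmp9 was at 1.26 (lowest), 1.68 (median) and 2.10 CPM (highest) in 6 controls and at 1.75, 2.07 and 2.31 CPM in 6 nPM libraries. The groups overlapped between 1.75 and 2.10 CPM. The log2 fold change was 0.29 (SE 0.16, 95% interval -0.04 to 0.63, edgeR unadjusted p = 0.084, adjusted p = 0.872). An exact permutation test of the group means of Mmp9 alone, 1 of 10 such tests in cortex, gave p = 0.0455, or 0.0498 without TMM scaling. Within lane 2 the log2 ratio of the means was 0.18 and within lane 3 it was 0.59.

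S100a8 in cortex had a log2 fold change of -0.42 (95% interval -1.43 to 0.58) and S100a9 of -0.29 (95% interval -1.41 to 0.82), and both intervals held 0 and reached below -1. Without cortex control replicate 1 the value for S100a8 was 0.035. Ltf had 0.18 (95% interval -0.72 to 1.09). Mpo had 21 counts in 6 controls and 6 in 6 nPM libraries, with an exact permutation p of 0.0714. Among the related lists, 10 of 16 other specific and gelatinase granule genes were tested in cortex. Of these, 2 passed an unadjusted p of 0.005, where 0.614% of all genes did. Olfm4 had a log2 fold change of 0.76 (SE 0.19, edgeR adjusted p = 0.566). Arg1, an arginase, had 1.57 (SE 0.42, edgeR adjusted p = 0.598). Of the 5 fibroblast markers Dcn, decorin, had 0.62 (SE 0.14, edgeR adjusted p = 0.493). Of the inhibitors, 10 of 13 were tested and 7 lay above 0, with Timp2 at 51.4 RPKM in cortex against 0.28 RPKM in blood.

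**Figure D5:**
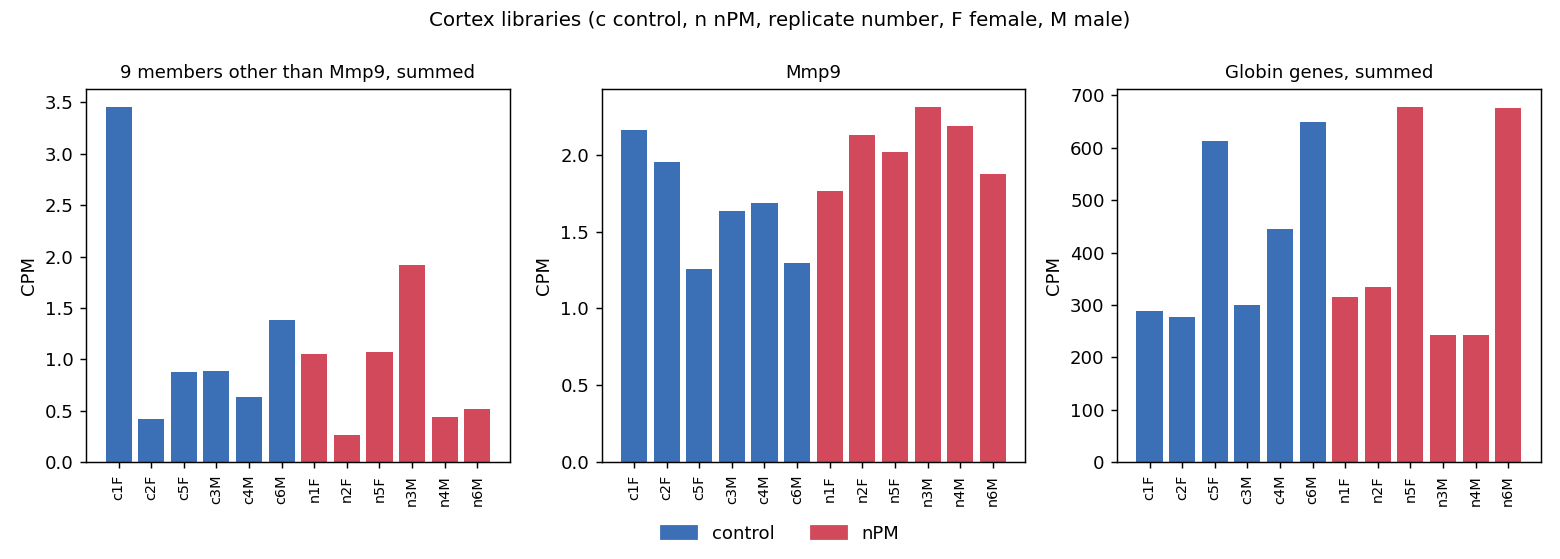
CPM without TMM scaling in each of the 12 cortex libraries (bars, controls blue and nPM red) for the 9 members other than Mmp9 summed, for Mmp9 and for the summed globin genes. Control replicate 1 is highest for the summed members at 3.46 CPM, Mmp9 is at 1.26 to 2.31 CPM throughout, and globin is highest in the 4 libraries of lane 3.

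The left-out blood library, control replicate 3, held the members at a lower level. S100a8 had 227 counts there, or 10.7 CPM without TMM scaling, against 17.3 to 44.6 CPM in the other 11 blood libraries on that scale. S100a9 was at 14.1 CPM against 25.1 to 57.5 CPM, and Mpo and Elane were at 0 counts, which allows up to 0.142 CPM. The 10 members summed to 33.8 CPM, against 66.6 to 160 CPM in the others. Members of the specific granules were also lower there, with Ltf at 2.64 CPM against 6.55 to 18.04 CPM and Ngp at 2.13 CPM against 4.78 to 16.3 CPM.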

How the data were processed

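Total RNA of whole blood and cerebral cortex was depleted of ribosomal RNA and sequenced in 24 libraries. Per the labels and the study's methods, the authors trimmed reads with Trimmomatic, used HISAT2 for alignment to mm10, and obtained gene counts from featureCounts 1.5.0-p3 with Gencode annotation. The deposited table holds raw counts, with no normalization, and strandedness is not given in the sources used here. The authors' gene table also holds mean RPKM, which was not used. The 10 members and all lists were chosen with earlier results of these data known.

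Counts were tested with edgeR 4.0.16 (R 4.3.3; quasi-likelihood F test, TMM, genes whose lowest count among the fitted libraries was 1 or more, Benjamini-Hochberg over all genes) with exposure, sex and RIN as terms. The interaction and the effects in each sex came from a fit with an exposure-by-sex term. Blood control replicate 3 was left out of the blood fits. The study excluded 1 blood library without naming it, and this library stood apart. Thresholds were an adjusted p of 0.05 and an unadjusted p of 0.005. Single values were compared by two-sided exact permutation tests, and correlations by 100000 permutations, exact under 10 libraries (scipy 1.17.1). RPKM was computed from counts and the gene length of the files. Floors for a count of 0 used 3 counts and cover counting error only. No pair of libraries of a group were copies, since their smallest chi-square per gene was 7.23. On simulated data with 200 genes changed 2-fold, the blood fit recovered 111 of 184 tested changed genes at an unadjusted p of 0.005 and 72 after adjustment, and the cortex fit 160 and 145 of 193. Named genes are all members, list genes with an unadjusted p under 0.005 or otherwise the highest in blood, and the 10 genes most like the members. Other list genes are named for their role, after their values were seen. Alternatives were limma voom 3.58.1, DESeq2 1.42.0, RLE scaling, other filters, no RIN, a lane term, each library left out, all 12 blood libraries and fits of each sex.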

Additional observations from a re-analysis of the deposited data

Results flagged for a closer look

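A library was noted when its gap to the nearest library of its group exceeded Dixon's 95% critical value for the group's range. This held for 9 of 40 groups of libraries (10 members in 4 groups), and the members share libraries. The rule's chance rate of about 1 in 20 assumes normally distributed values, which counts near the floor in cortex are not. Where all other libraries of a group lacked counts, a lone library with any count is flagged automatically. The number flagged was therefore not compared with that rate. In blood, control replicate 6 was low for Ltf, at 6.99 CPM with the next control at 13.1 CPM, and for Ngp, at 5.11 CPM with the next at 12.8 CPM. In blood, nPM replicate 4 was low for Mmp9, at 2.46 CPM with the next at 5.15 CPM.

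In cortex, control replicate 1 was high for S100a9, at 0.88 CPM (23 counts) with the next control at 0.26 CPM, and for Ngp, at 0.50 CPM (13 counts) with the next at 0.034 CPM. Cortex nPM replicate 3 was high for Ngp, at 0.26 CPM (8 counts), and for Mpo, at 0.13 CPM (4 counts). Cortex control replicate 5 held the single count of Elane, at 0.034 CPM, and cortex nPM replicate 4 held 2 counts of Mmp8, at 0.059 CPM, where the others of those groups were at 0.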

How the results depend on the processing

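No paired analysis was possible because replicate numbers follow accession order and tie no libraries together. In every alternative run (limma voom, DESeq2, RLE scaling, other count filters, no RIN term, a lane term, all 12 blood libraries, each sex alone, each library left out) 0 members passed an adjusted p of 0.05, and 380 counts and medians and 440 single-gene values kept their direction and side of the threshold, beside 10 and 41 that did not. The 380 include counts of members past a threshold that stayed at 0, so they say little on how stable the fold changes were. The ranges below show how far those moved. Depth limits Elane in blood and all members but Mmp9 in cortex.

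For the nPM effect in blood, the members' median was -0.31 with females alone and 0.61 with males alone. All 12 blood libraries gave S100a8 0.17, S100a9 0.032 and Camp 0.15. In every fit of the 12, control replicate 3 had a TMM factor of 6.95, against 0.65 to 1.07 in the others. Males alone gave S100a8 0.66, S100a9 0.34, Camp 0.61 and Mpo 0.36, and females alone gave Ltf -0.24, Ngp -0.37, Lcn2 -0.021, Mmp8 -0.15 and Mmp9 -0.079. Leaving out each library gave ranges of -0.21 to 0.18 for S100a8, -0.35 to 0.059 for S100a9, -0.057 to 0.24 for Ltf, -0.24 to 0.080 for Camp, -0.12 to 0.29 for Ngp and -0.017 to 0.34 for Lcn2, with control replicate 6 left out at the low end and control replicate 1 at the high end, and -0.063 to 0.18 for Mmp9 (without nPM replicates 1 and 4).

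With all 12 blood libraries the members' median was 0.17 for the sex effect, -0.023 for the interaction and 0.34 for the nPM effect in females, and the interaction was -0.095 for Ltf, -0.39 for Lcn2, -0.12 for Mmp8 and -0.52 for Mmp9. Leaving out each library gave a median interaction of 0.43 (without control replicate 6) to 1.22 (without control replicate 4), with Mpo at -0.31 to 0.79 and Mmp9 at -0.19 to 0.94, and a median effect in females of -0.68 (without control replicate 4) to -0.072 (without control replicate 1). The number of members past an unadjusted p of 0.005 ran from 0 to 1 in both, the 1 being Camp without nPM replicate 1. Without control replicate 1 or 4 a lone control female was assumed to vary like the other groups.

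In cortex the median was -0.74 when genes counted in any library were kept, and S100a8 ran from -0.83 (without nPM replicate 1) to 0.035 (without control replicate 1). Of the relations with S100a8, those of Ltf, Camp, Ngp, Lcn2 and Mmp8 missed an adjusted p of 0.05 in lane 1 alone. Those of Mpo and Mmp9 passed with all 12 libraries by Pearson's r. By rank with all 12 they did not, with Spearman's rho of 0.53 (permutation adjusted p = 0.103) for Mpo and 0.41 (permutation adjusted p = 0.209) for Mmp9. The causes were not tested.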
